A study of Mus musculus with 8 samples.

Results

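The genes described here encode 10 ligands and receptors of the netrin and slit guidance systems: the ligand genes Ntn1, Slit2 and Slit3, and the receptor genes Dcc, Unc5a, Unc5b, Unc5c, Unc5d, Robo1 and Robo2. They were chosen by symbol, with earlier results of these data known, and all 10 were found among the 32531 genes of the count tables. Ribosome-bound RNA from the dorsal striatum of mice was compared with that from the nucleus accumbens, the ventral division of the striatum, in 4 libraries from each of the 2 regions. All mice, in both groups alike, were untreated, were older than 20 months and carried the transgene Drd1-EGFP/Rpl10a (line CP73), in which cells using the dopamine D1 receptor promoter make a ribosomal protein, L10a, joined to a green fluorescent tag. Ribosomes with their RNA were captured through that tag, a procedure known as translating ribosome affinity purification, so that the libraries are meant to hold mostly RNA of D1 receptor-expressing projection neurons. The line is a transgene insertion, the labels do not say whether a library came from 1 animal or a pool, and p-values therefore measure only the spread between these samples, which may be technical. The design asks for differences in translated RNA between the regions in old animals.

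Netrins are secreted, laminin-related cues. Netrin-1 attracts axons through the receptor DCC, and repels them where a receptor of the UNC5 family takes part. Slits are large secreted proteins that bind ROBO receptors and mostly repel. The systems are best known for steering axons in the embryo, dopamine axons that innervate the striatum among them, and DCC and netrin-1 remain present at synapses of adult neurons.

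Dorsal libraries held 7466970 to 10363145 gene counts and accumbens libraries 10831937 to 12639641, so that every accumbens library was larger. Accumbens 2 stood somewhat apart, with a median rank correlation with the remaining libraries of 0.927. Dorsal striatum 3 had the next lowest median, 0.935, but close to the 0.936 to 0.955 found elsewhere. Drd1 averaged 605 ± 60.9 CPM (counts per 1000000 reads on genes, after scaling between libraries) in the dorsal group against 435 ± 86.5 CPM in the accumbens group (SD, n = 4 per region), and Rpl10a 194 ± 35.3 and 206 ± 25.2 CPM. Neither was called (edgeR adjusted p = 0.0750 and 0.868), but both DESeq2 (adjusted p = 0.0329) and limma-voom (0.0187) called Drd1, as lower in accumbens. EdgeR also called it without the filter on low counts (adjusted p = 0.0398), without accumbens 2 (0.0167) and without accumbens 2 and dorsal striatum 3 together (0.0245). Markers of D1 projection neurons (9 genes) summed to 2322 to 2658 CPM in dorsal and 1981 to 2247 CPM in accumbens libraries. They went both ways, with Pdyn called higher in accumbens and Ebf1 and Eya1 called higher in dorsal striatum. Of 8 markers shared by all projection neurons, 5 were called higher in dorsal striatum. Markers of other cells were found in every library. Excitatory neuron markers (6 genes) summed to 4.43 to 108.6 CPM in dorsal and 23.8 to 100.1 CPM in accumbens libraries, with 0 called. Oligodendrocyte precursor markers (5 genes) summed to 0.887 to 9.76 and 7.825 to 9.78 CPM, with 0 called. Mural cell and fibroblast markers (6 genes) summed to 2.01 to 34.2 and 3.16 to 62.6 CPM, with 0 called. Over 7 markers of D2 receptor-expressing projection neurons the summed level was 252 to 355 CPM in dorsal and 667 to 945 CPM in accumbens libraries, with 3 called higher in accumbens (Drd2, Adora2a and Penk). For the eccentric projection neurons, a small class with 7 markers, it was 119.9 to 151 and 209.6 to 279.6 CPM, with Otof and Tshz1 called higher in accumbens. The ranges were 191 to 361 and 245 to 683 CPM for 9 astrocyte markers, of which Slc1a2 was called higher in accumbens, 124 to 197 and 129 to 327 CPM for 8 oligodendrocyte markers with 0 called, and 8.40 to 85.8 and 7.42 to 206 CPM for 9 endothelial markers with 0 called. Interneuron markers (11 genes) summed to 37.4 to 142 and 77.3 to 171 CPM, and neuroblast and dividing cell markers (7 genes, Dlx1 called higher in accumbens) to 42.7 to 80.8 and 96.4 to 150.3 CPM. Microglia markers were near the detection limit, at 0.985 to 4.24 and 4.8 to 15.3 CPM over 8 genes, with C1qa at 0 in every library. The part of these cell types in the differences below was not tested, apart from a fit with the glial marker level as a covariate. In libraries of this kind, fewer cells of a type and less RNA per cell cannot be told apart.

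Of the 10 genes, all passed the filter on low counts and 5 differed between the regions. Ntn1, Slit2, Unc5d and Robo1 were higher in accumbens and Robo2 was higher in dorsal striatum, by the quasi-likelihood test of edgeR (called below 0.05 after Benjamini-Hochberg adjustment over 12467 tested genes). Over all tested genes 3.72% were called, 1.6% as higher in accumbens and 2.12% as higher in dorsal striatum. For 7 of the 10 genes, the 5 called ones, Unc5c and Dcc, the 4 libraries of one region lay entirely to one side of the other 4, as for 9.69% of all tested genes. Accumbens was the higher side for 5 of the 7 (4.51% of tested genes) and dorsal striatum for 2 (5.18%). The median log2 fold change, accumbens over dorsal striatum, was 0.47 over the 10 genes and 0.02 over all tested genes. Without accumbens 2 and dorsal striatum 3, Ntn1, Unc5d and Robo2 were called, 3 of the 10. With the mean level of 14 glial markers (astrocyte, oligodendrocyte, microglia) as a covariate, which ran from -1.04 to 0.48 in dorsal and from -0.05 to 0.71 in accumbens libraries on a centred log2 scale, 2 were called, Ntn1 and Robo2. Unc5d, Slit2 and Robo1 lost their call under that covariate (edgeR adjusted p = 0.0634, 0.170 and 0.110). Their log2 fold changes were 1.75, 1.65 and 0.70, all at least as large as without it. Those of the 2 genes still called were smaller in size. Ntn1 went from 2.75 without the covariate to 2.34 with it, and Robo2 from -1.17 to -1.12. Of the genes not called in either fit, Unc5a went from 0.296 to 0.00185. Slit3 and Dcc also became smaller in size, while Unc5c and Unc5b became larger.

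**Figure D1:**
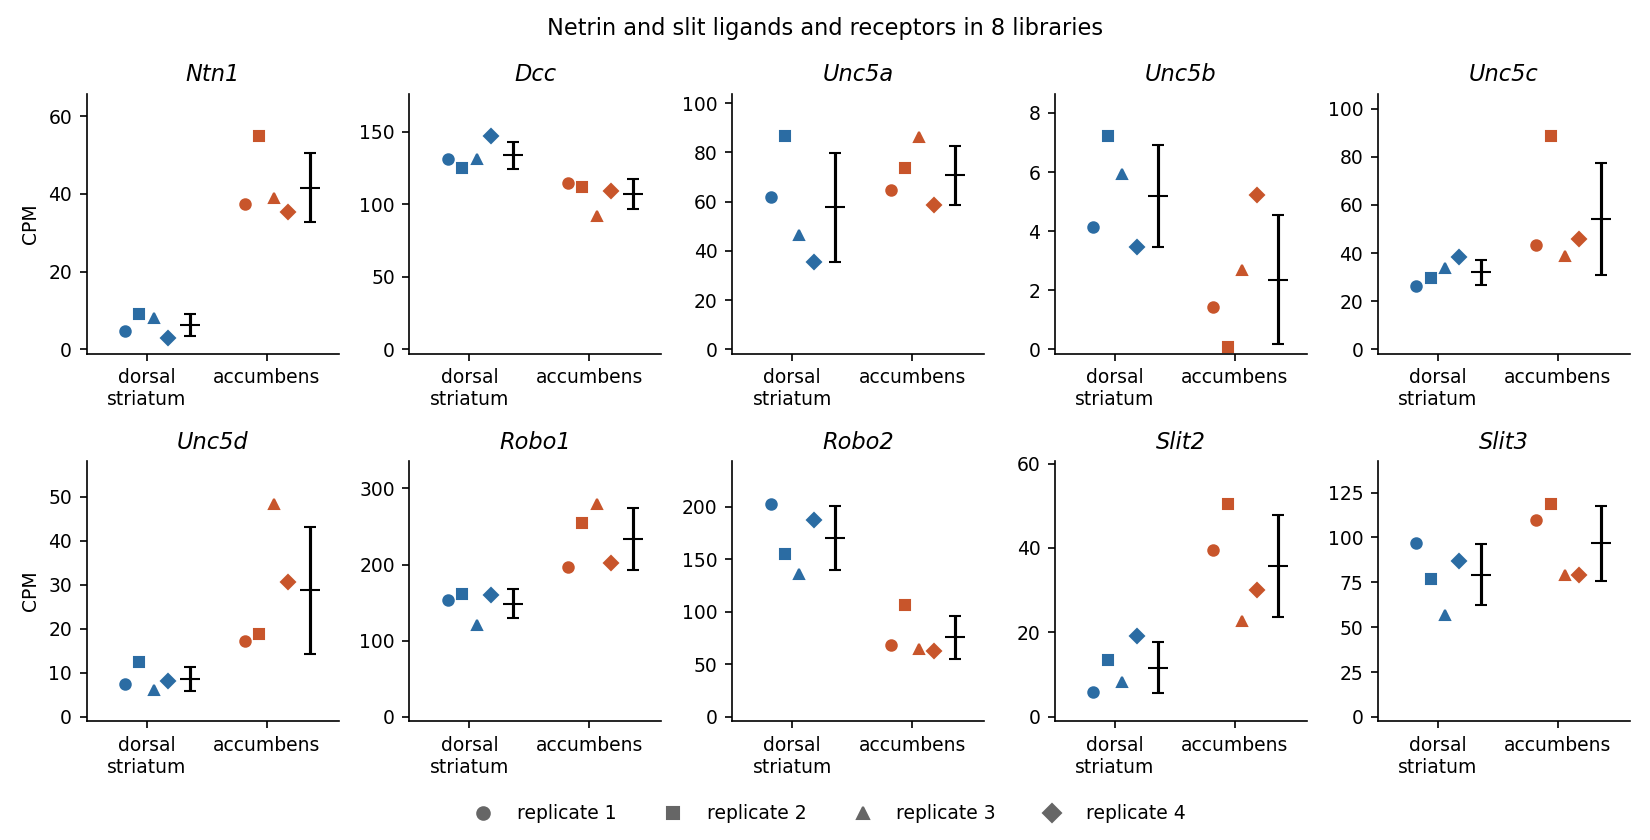
Level of each gene in every library, in CPM on axes that start at 0, by region; marker shapes are replicate numbers, and the black bar gives the mean and SD of 4 libraries. Ntn1, Unc5d, Slit2 and Robo1 sit higher in all 4 accumbens libraries, and Robo2 in all 4 dorsal ones.

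Among the ligands, Ntn1, which encodes netrin-1, showed the largest difference of the 10 genes. Its gene lies on chromosome 11 of mm10, 68209364 to 68400823, on the minus strand, with no other gene over its exons in GENCODE M21. The dorsal libraries 1 to 4 held 40, 85, 59 and 30 reads, or 4.73, 9.02, 8.16 and 2.96 CPM. The accumbens libraries held 416, 643, 492 and 427 reads, or 37.3, 54.8, 38.9 and 35.4 CPM. The lowest accumbens value was thus well above the highest dorsal one. Means were 6.22 ± 2.86 and 41.6 ± 8.95 CPM (SD, n = 4 per region), a 6.71-fold difference (log2 fold change 2.75 ± 0.34 SE, edgeR adjusted p = 1.11e-04). Of the 200 genes called higher in accumbens, 12 had a larger fold change. Ntn1 was called under all 18 alternative settings, with log2 fold changes from 2.34 to 2.99.

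Slit2, one of the repellent slit ligands, was also higher in accumbens. It lies on chromosome 5, 47983138 to 48307733, on the plus strand. Its levels were 5.80, 13.5, 8.30 and 19.2 CPM in dorsal libraries 1 to 4 and 39.6, 50.5, 22.7 and 30.1 CPM in accumbens libraries 1 to 4. The gap between regions was narrow, with dorsal striatum 4 at 19.2 CPM and accumbens 3 at 22.7 CPM on its edges. Means were 11.7 ± 5.94 and 35.7 ± 12.03 CPM (SD, n = 4 per region), with a log2 fold change of 1.6 ± 0.36 SE (edgeR adjusted p = 0.0146). The call was lost without accumbens 2 (adjusted p = 0.05002), dorsal striatum 1 (0.0514) or dorsal striatum 3 (0.0592) in the edgeR fit, with log2 fold changes between 1.38 and 1.47. Without both accumbens 2 and dorsal striatum 3 the log2 fold change was 1.26 (edgeR adjusted p = 0.118).

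Slit3, the more abundant slit, did not pass the test. It stood at 96.7, 76.7, 56.996 and 86.8 CPM in the dorsal libraries and at 109.99, 119, 78.96 and 79.1 CPM in the accumbens libraries. The regions overlapped, and the log2 fold change was 0.29 ± 0.20 SE (edgeR adjusted p = 0.569). Per kilobase of exon of its coding transcripts, Slit3 made up 92.8% ± 3.09 of Slit2 and Slit3 together in dorsal libraries, against 84.2% ± 2.13 in accumbens libraries (SD, n = 4 per region). Slit2 accordingly held 3.02% to 10.3% in dorsal and 12.99% to 18.1% in accumbens libraries. The third slit gene, Slit1, stood at 2.57 ± 1.94 and 10.3 ± 5.59 CPM and was not called by edgeR (log2 fold change 1.99 ± 0.68 SE, adjusted p = 0.142), while DESeq2 called it (adjusted p = 0.0429).

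The 250 bases before the RefSeq start of Slit2 (GRCm38.p6, chr5:47982905-47983154, plus strand) are shown because Slit2 was the called ligand gene with an entry in the RefSeq promoter table, which held 7 of the 10 genes (all but Ntn1, Dcc and Unc5d). Capitals mark matches on either strand to a TATA box (TATAAA), a GC box (GGGCGG) or a CCAAT box (CCAAT).
Slit2: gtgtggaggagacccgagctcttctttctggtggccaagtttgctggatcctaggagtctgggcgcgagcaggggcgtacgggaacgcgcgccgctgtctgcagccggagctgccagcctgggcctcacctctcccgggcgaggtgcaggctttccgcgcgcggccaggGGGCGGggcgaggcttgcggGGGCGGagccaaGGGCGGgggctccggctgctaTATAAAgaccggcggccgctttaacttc
The window held 1 TATA box, 3 GC boxes and no CCAAT box, with 25 CpG dinucleotides and a GC content of 69.6%. Over all 32851 windows of that length, 12.4% held a TATA box, 32.7% a GC box and 33.8% a CCAAT box, and the medians were 6 CpG dinucleotides and 52.4% GC. The matches are a description of the letters and were not tied to any measurement here.

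Of the netrin receptors, Dcc, which mediates attraction to netrin-1, was abundant and only slightly different between regions. It stood at 131, 125, 131 and 147 CPM in dorsal libraries 1 to 4 and at 115, 112, 92.3 and 109.5 CPM in accumbens libraries 1 to 4. Every dorsal value was above every accumbens value, but the gene did not pass the test (133.8 ± 9.30 and 107 ± 10.2 CPM, SD, n = 4 per region; log2 fold change -0.32 ± 0.14 SE, edgeR adjusted p = 0.302). It was called under 0 of the 18 alternatives, with log2 fold changes between -0.35 and -0.25.

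Unc5d was the called member of the UNC5 family, whose products are the repulsive netrin receptors and, for UNC5D, also receptors for the FLRT2 protein. It lies on chromosome 8, 28646717 to 29219636, on the minus strand. Its levels were 7.57, 12.5, 6.09 and 8.18 CPM in dorsal libraries 1 to 4 and 17.1, 18.9, 48.4 and 30.6 CPM in accumbens libraries 1 to 4. The regions did not overlap, and accumbens 3 was the highest library. Means were 8.59 ± 2.76 and 28.8 ± 14.4 CPM (SD, n = 4 per region; log2 fold change 1.74 ± 0.37 SE, edgeR adjusted p = 0.00908). Without accumbens 3 the log2 fold change was 1.37 (edgeR adjusted p = 0.0577).

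The other UNC5 genes did not pass the test. Unc5c stood at 26.4, 29.5, 33.9 and 38.2 CPM in the dorsal libraries and at 43.5, 88.5, 38.9 and 45.7 CPM in the accumbens libraries. The ranges of Unc5c nearly met, with accumbens 2 far above the other 3 (log2 fold change 0.76 ± 0.26 SE, edgeR adjusted p = 0.145), and without that library the value was 0.41. Unc5c shares 118 exonic bases with an antisense gene, and without the strand setting of the counting their reads cannot be told apart. Unc5a, the most abundant of the family, ranged from 35.4 to 86.6 CPM in dorsal and from 58.6 to 86.2 CPM in accumbens libraries (log2 fold change 0.30 ± 0.24 SE, adjusted p = 0.649 in edgeR). Its exons share 34 bases with Hk3 on the opposite strand. Unc5b, best known from endothelial tip cells, was scarce, with 35 to 68 reads in dorsal libraries (3.45 to 7.21 CPM) and 16, 1, 34 and 63 reads in accumbens libraries 1 to 4. Its log2 fold change was -1.13 ± 0.81 SE (edgeR adjusted p = 0.587). Leaving out accumbens 4 gave -1.88 and leaving out accumbens 2 gave -0.73, so that the libraries' spread was wide beside the difference. The endothelial roundabout gene Robo4 was as scarce, at 3.37 ± 4.64 and 6.40 ± 5.47 CPM (SD, n = 4 per region; adjusted p = 0.787 in edgeR).

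The coding sequences of these paralogs shared short exact stretches. Among the coding sequences of GENCODE M21, the longest stretch shared exactly by any pair of Unc5 genes was 27 bases, between Unc5b and Unc5c, and is shown to give the scale of that similarity.
Unc5b and Unc5c: tccaagaactgcactgatgggctgtgc
Robo1 and Robo2 shared at most 19 bases and Slit2 and Slit3 at most 20. The read length was not given in the sources used here, and near matches and untranslated regions were not compared.

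Robo1 and Robo2, the slit receptor genes expressed by neurons, changed in opposite directions. Robo1 lies on chromosome 16, 72308306 to 73046095, on the plus strand, and Robo2 on the same chromosome, 73891839 to 74411825, on the minus strand, with 845743 bases and 0 protein-coding genes between them in GENCODE M21. Robo1 stood at 153, 161, 121 and 159.7 CPM in dorsal libraries 1 to 4 and at 196, 255, 280.03 and 203 CPM in accumbens libraries 1 to 4. All accumbens values lay above all dorsal ones (148.8 ± 18.8 and 233 ± 40.7 CPM, SD, n = 4 per region; log2 fold change 0.65 ± 0.15 SE, edgeR adjusted p = 0.0204). The call of Robo1 was lost without accumbens 2 (edgeR adjusted p = 0.0592), accumbens 3 (0.0814), dorsal striatum 1 (0.0568) or dorsal striatum 3 (0.0793), and without both accumbens 2 and dorsal striatum 3 (0.133).

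Robo2 stood at 203, 155, 136 and 187 CPM in dorsal libraries 1 to 4 and at 68.1, 106, 64.97 and 63.2 CPM in accumbens libraries 1 to 4. The regions did not overlap, and 3 of the accumbens libraries lay within a few CPM of each other while accumbens 2 was higher. Means were 170.4 ± 30.4 and 75.7 ± 20.6 CPM (SD, n = 4 per region), 2.25-fold higher in dorsal striatum (log2 fold change -1.17 ± 0.19 SE, edgeR adjusted p = 0.00124). Robo2 was called under all 18 alternatives, with log2 fold changes from -1.48 to -1.08.

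The windows before the starts of both genes are shown because the paralogs, neighbours on chromosome 16, moved apart: chr16:72662899-72663148 on the plus strand for Robo1 and chr16:74411826-74412075 on the minus strand for Robo2 (GRCm38.p6, from RefSeq, 250 bases each). The former lies within the GENCODE span of Robo1. The latter is the third of 3 listed Robo2 starts and the one that meets the GENCODE start. Capitals would mark the same motifs as above, and neither window held one.
Robo1: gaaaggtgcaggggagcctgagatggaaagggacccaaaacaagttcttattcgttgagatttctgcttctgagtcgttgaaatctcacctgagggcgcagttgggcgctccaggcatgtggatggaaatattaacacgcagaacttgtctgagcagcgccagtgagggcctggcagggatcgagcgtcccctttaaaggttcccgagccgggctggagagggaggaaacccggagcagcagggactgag
Robo2: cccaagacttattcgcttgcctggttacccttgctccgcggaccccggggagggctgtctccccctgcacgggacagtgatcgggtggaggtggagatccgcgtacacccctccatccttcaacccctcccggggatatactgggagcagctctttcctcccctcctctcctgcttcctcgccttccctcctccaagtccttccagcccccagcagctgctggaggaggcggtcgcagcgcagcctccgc
The Robo1 window held 11 CpG dinucleotides at 56.0% GC and the Robo2 window 14 at 65.6% GC, both above the medians of all windows. Of the Robo2 starts not shown, the first had 8 CpG dinucleotides at 53.2% GC. The second had 4 at 44.8% GC, below both medians. Counts per gene do not separate the starts, so which one was in use was not measured.

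**Figure D2:**
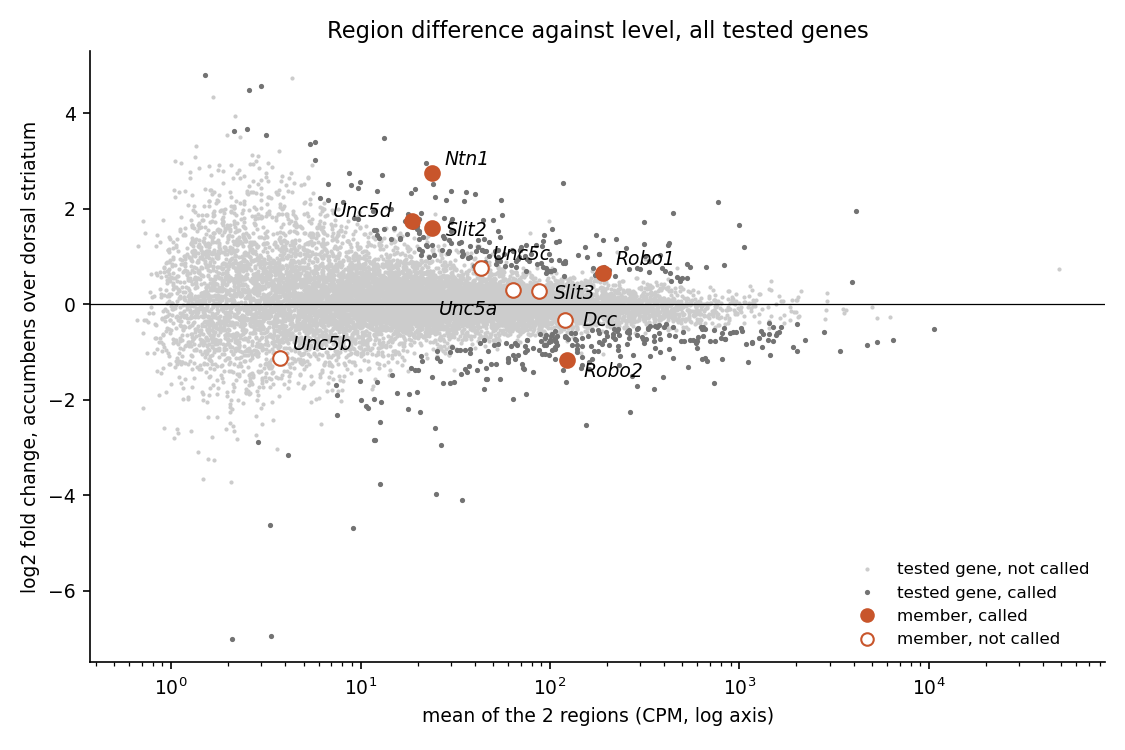
Log2 fold change, accumbens over dorsal striatum, against the mean CPM of the regions (log axis) for every tested gene; dark points passed edgeR's test, and orange circles are the 10 netrin and slit genes, filled where called. Ntn1 lies near the upper edge of genes at its level, and Robo1 and Robo2 lie at similar levels on either side of 0.

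Set per kilobase of exon, Robo1, Robo2, Slit3, Unc5a and Dcc formed an abundant group in dorsal striatum, from 18.8 down to 12.97 CPM per kilobase in that order, with each gene's range over 4 libraries overlapping that of the next. Unc5c followed at 3.30 CPM per kilobase, apart from both neighbours, and Slit2, Ntn1, Unc5d and Unc5b lay between 1.16 and 0.884 with overlapping ranges. In accumbens Robo1 stood alone at the top with 29.6 CPM per kilobase, followed by Slit3 at 18.5 and Unc5a at 17.7, whose ranges overlapped. Dcc at 10.4, Robo2 at 7.82, Ntn1 at 6.63, Unc5c at 5.58, Slit2 at 3.55 and Unc5d at 3.12 CPM per kilobase came next, each overlapping the one after it. Unc5b was last at 0.401. These levels rest on GENCODE lengths, since the annotation used for counting was not given in the sources used here.

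Between paralogs, the balance was compared as the log2 ratio of their counts in each library, over 9 pairs. The Robo2 to Robo1 log2 ratio was 0.41, -0.06, 0.16 and 0.23 in dorsal libraries 1 to 4 and -1.52, -1.26, -2.10 and -1.68 in accumbens libraries 1 to 4. Its mean differed by -1.83 (exact permutation, two-sided, p = 0.0286, which no p of 4 against 4 libraries can undercut, and 0.0514 adjusted over 9 pairs). Per kilobase, Robo2 held 48.2% ± 3.31 of the summed Robo1 and Robo2 level in dorsal striatum and 20.9% ± 3.95 in accumbens, while the sum stood at 36.5 ± 5.001 and 37.4 ± 6.20 CPM per kilobase (SD, n = 4 per region).

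The log2 ratio of Slit3 to Slit2 fell by 1.39 from a dorsal mean of 2.86 ± 0.81 to 1.47 ± 0.24 in accumbens (SD, n = 4 per region), and that of Dcc to the summed Unc5 genes by 0.92. Unc5d rose by 1.29 against Unc5a and by 3.31 against Unc5b, the latter resting in part on accumbens 2 with its 1 read of Unc5b. Without that library the difference was 2.62 and the regions did not overlap. These 4 ratios and that of the Robo genes were the 5 of 9 without overlap between regions. No share over all gene pairs was computed to set beside this, and the ratios have genes in common, so that they are not independent. Each had the same exact permutation p of 0.0286 and adjusted value of 0.0514, so that none passed 0.05 after adjustment. Since 0.0286 is the lowest p possible here, the adjusted value depended on how many of the 9 pairs reached it and cannot judge a single ratio. The ratio of Unc5c to Unc5a (difference 0.33, exact permutation p = 0.486) and that of Unc5d to Unc5c (difference 0.96, exact permutation p = 0.200) overlapped. So did Unc5b to Unc5a (difference -2.03, exact permutation p = 0.0857) and Unc5c to Unc5b (difference 2.35, exact permutation p = 0.0571), which moved to -1.15 and 1.24 without accumbens 2.

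**Figure D3:**
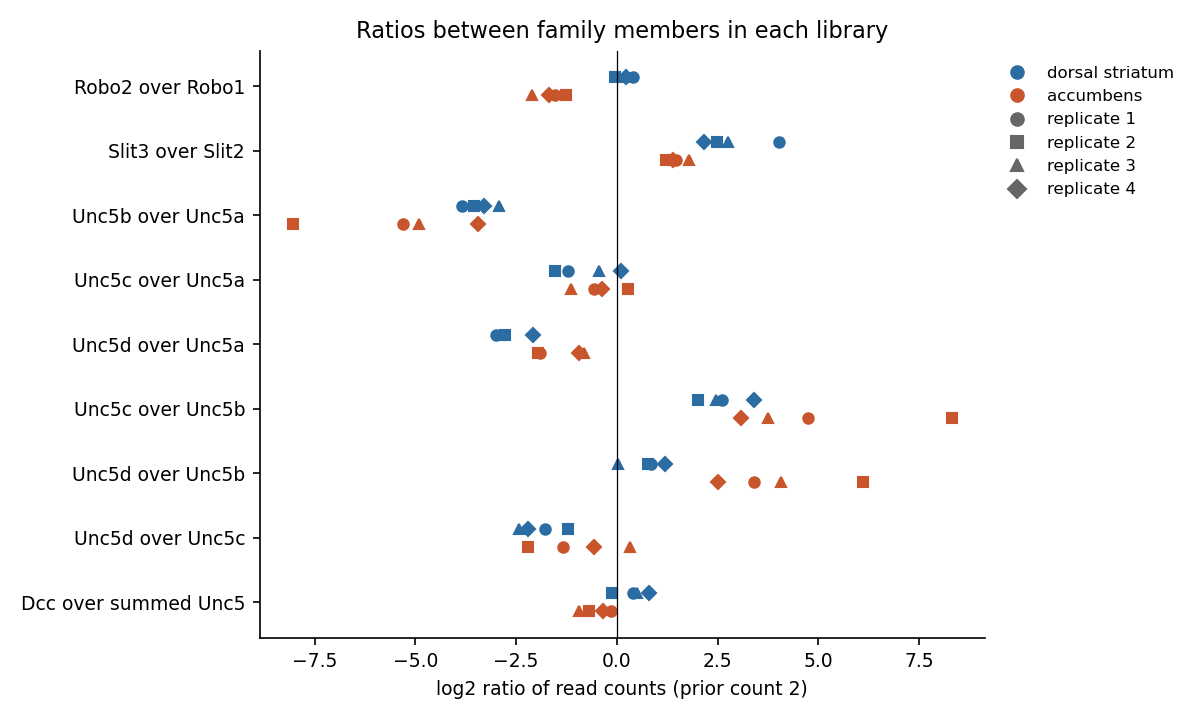
Log2 ratio of read counts between family members (horizontal axis, prior count 2) in each of the 8 libraries, by region (colour) and replicate number (shape). The dorsal and accumbens points of Robo2 over Robo1, Slit3 over Slit2, Unc5d over Unc5a, Unc5d over Unc5b and Dcc over summed Unc5 do not overlap.

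Among the further genes of the pathways, Enah and Pak1 were higher in accumbens and Srgap1 was higher in dorsal striatum. A list of 69 ligands, receptors and effectors was written from general knowledge, but with earlier results of these data known. It is therefore not independent of the data, and its shares are a description only. Of the 69 genes, 63 were tested and these 3 were called, 4.76% beside 3.72% of all tested genes. An unadjusted p under 0.05 was found for 18 of the 63 (28.6%, beside 14.8% of all tested genes), and the regions did not overlap for 13 (20.6%, beside 9.69%). Their median log2 fold change was 0.06. Enah, an actin regulator of the Ena/VASP family at growth cones, stood at 427 ± 41.8 and 629 ± 15.8 CPM (SD, n = 4 per region; log2 fold change 0.56 ± 0.11 SE, edgeR adjusted p = 0.00740). Pak1, a kinase downstream of Rac1 and Cdc42, averaged 406 ± 22.5 CPM dorsally and 565 ± 29.2 CPM (SD, n = 4 per region) in the other region (log2 fold change 0.48 ± 0.11 SE, edgeR adjusted p = 0.0185). Both are on the list of 24 netrin effectors, of which 23 were tested and 8 had an unadjusted p under 0.05.

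On the list of slit effectors, with 20 of 21 tested and 5 at an unadjusted p under 0.05, Srgap1 was called. It encodes a GTPase-activating protein that binds the inside of ROBO receptors, and stood at 239 ± 40.8 CPM dorsally, against 120.9 ± 28.9 CPM in accumbens (SD, n = 4 per region; log2 fold change -0.99 ± 0.18 SE, edgeR adjusted p = 0.00277). Its relatives Srgap2 and Srgap3 had log2 fold changes of 0.37 and -0.11 (edgeR adjusted p = 0.551 and 0.803). Cap2 and Cap1, actin regulators among the most abundant of that list beside Srgap3, had -0.38 and -0.14 (edgeR adjusted p = 0.121 and 0.844). With the glial marker covariate 0 of the 63 were called (Srgap1 -0.77, Enah 0.57 and Pak1 0.57, edgeR adjusted p = 0.101, 0.0852 and 0.0612). Without accumbens 2 and dorsal striatum 3 Srgap1 alone was called. Pak1 also lost its call without accumbens 2, accumbens 3, dorsal striatum 1 or dorsal striatum 2 (edgeR adjusted p from 0.0506 to 0.0681).

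Of 13 other ligands 10 were tested, and of 11 other receptors 10, and edgeR called 0 on either list (2 and 3 at an unadjusted p under 0.05). DESeq2 called Slit1 and the netrin receptor gene Neo1, which encodes neogenin. Neo1 stood at 79.6 ± 8.87 and 114 ± 14.1 CPM (SD, n = 4 per region; log2 fold change 0.52 ± 0.16 SE, adjusted p = 0.0898 in edgeR and 0.0263 in DESeq2). The most abundant other ligands were Nell2, Flrt1 and Flrt3, with log2 fold changes of -0.17, -0.33 and -0.19 (edgeR adjusted p = 0.601, 0.338 and 0.672). FLRT proteins bind UNC5 receptors. Among the other receptors they were the netrin-G ligand gene Lrrc4c and the latrophilin genes Adgrl1 and Adgrl3, at -0.35, -0.04 and 0.10 (edgeR adjusted p = 0.273, 0.945 and 0.812). Among the netrin effectors Rac1 was the most abundant and had a log2 fold change of -0.09 (edgeR adjusted p = 0.796), and Maged1, which binds UNC5A, had 0.36 (edgeR adjusted p = 0.107, and 0.0409 in DESeq2).

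**Figure D4:**
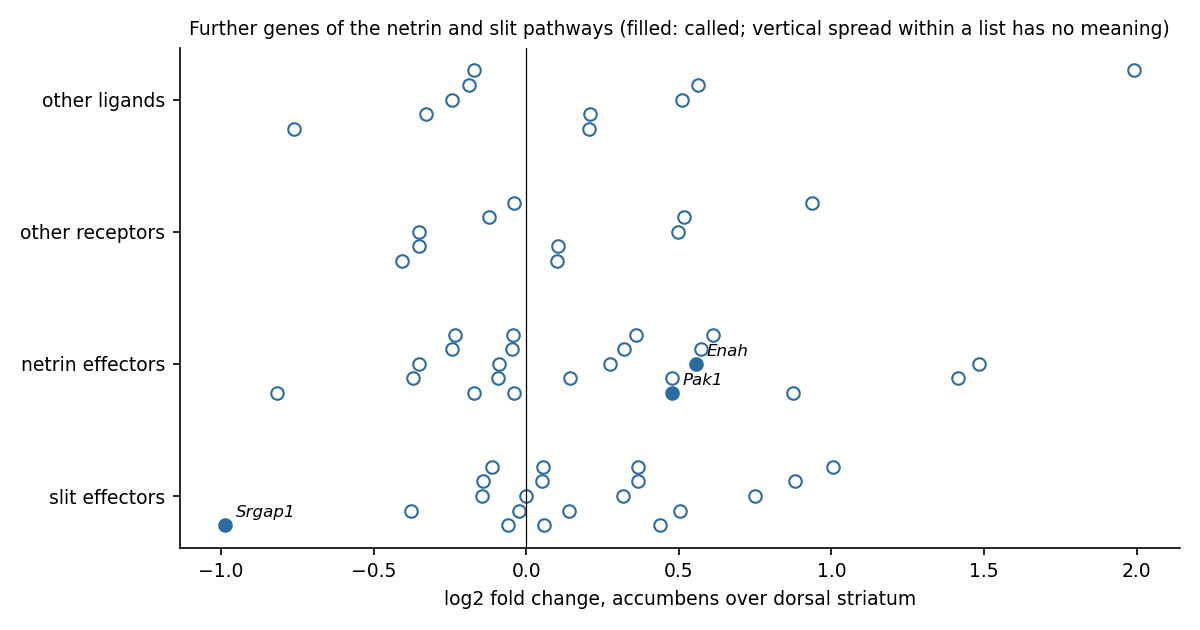
Log2 fold change, accumbens over dorsal striatum, of each tested gene on 4 lists of further netrin and slit pathway genes; filled points passed edgeR's test. Enah and Pak1 lie to the right of 0 and Srgap1 to the left of it, and the other 60 points are open.

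For each called gene, the genes with the most similar profile over the 8 libraries were found by the root mean square distance between log2 CPM values centred per gene. They were sought among 9488 tested genes that averaged at least 5 CPM, with predicted-gene symbols (Gm with digits, or ending in Rik) left out. Nearest to Ntn1 was Arhgap36 at a distance of 0.242, with 9.76 ± 4.75 CPM dorsally, against 50.4 ± 7.14 CPM in accumbens (SD, n = 4 per region), followed by Rgs16 (0.354) and AI506816 (0.492). Nearest to Unc5d were Sphkap (0.277), Cpne2 (0.340) and Cep192 (0.353). Nearest to Slit2 were Lxn (0.343), Gabrg1 (0.352) and Rasal1 (0.379). Nearest to Robo2 were Rgs7bp, at 898 ± 90.5 and 414 ± 52.7 CPM (distance 0.165), Itgbl1 (0.182) and Mme (0.194). The genes nearest to Robo1, Casp9 (0.0915), Ifngr2 (0.118) and Map4k2 (0.122), were all far less abundant than Robo1 and were not called (edgeR adjusted p = 0.424, 0.184 and 0.148). The lists describe likeness over these libraries and carry no test.

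**Figure D5:**
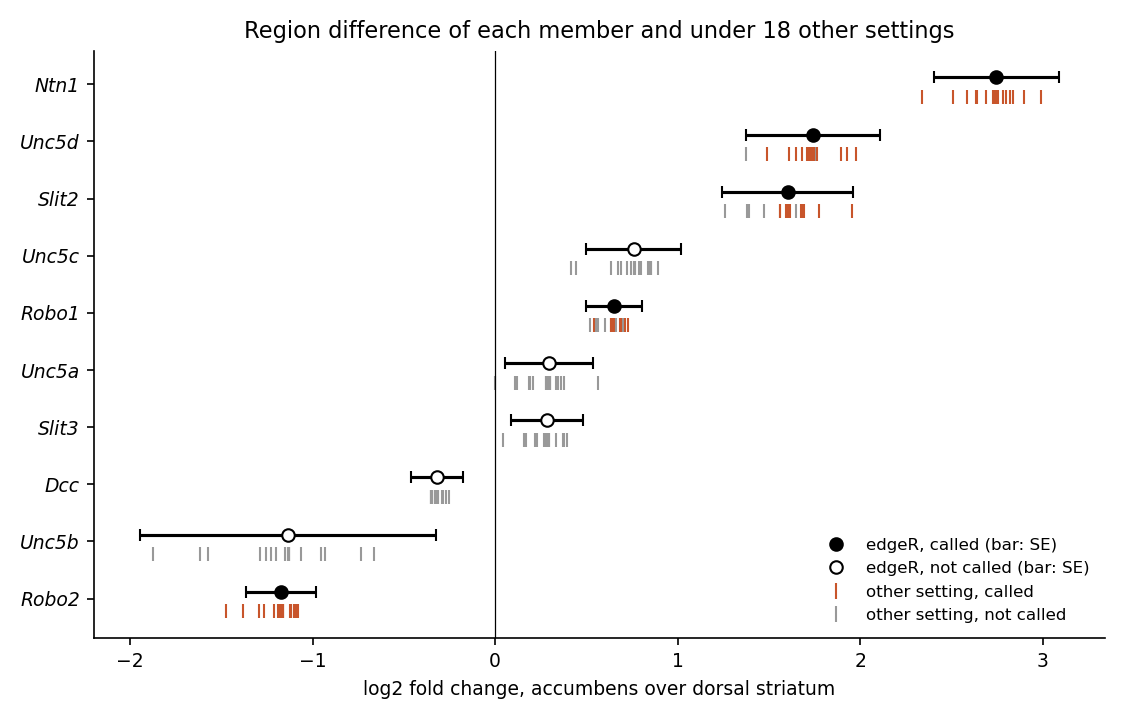
Log2 fold change, accumbens over dorsal striatum, of the 10 genes from edgeR (circles with SE bars, filled where called) and under 18 other settings (ticks, orange where called). The ticks of Ntn1 and Robo2 are all orange, and those of Unc5c, Unc5a, Slit3, Dcc and Unc5b all grey.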

How the data were processed

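The deposited files hold raw read counts per gene symbol, not normalized, 1 file per library. The authors aligned reads to mm10 with STAR 2.0.0e and counted them with HTSeq, per the submitters' processing notes. Annotation, strand setting and filters: not given in the sources used here. HTSeq's totals of unassigned reads and a row named unknown were left out. They made up 27.1% to 33.8% of dorsal and 35.5% to 40.6% of accumbens libraries, so that every accumbens library held the larger share. Whether this bears on the region differences was not tested. A count of 3 corresponds to 0.237 to 0.402 CPM, by raw library totals.

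Groups came from the sample titles. Regions were compared in R 4.3.3 by the F test of edgeR 4.0.16 (quasi-likelihood, with TMM scaling, filterByExpr with a minimum count of 10, region as the only term), over 12467 genes, called at an adjusted p under 0.05. CPM values use TMM-scaled library sizes, log2 CPM a prior count of 2, and standard errors the fold change and its F statistic. Ratios were tested by exact permutation (scipy 1.17.1). Lengths are merged exons of protein-coding transcripts in GENCODE M21 (GRCm38, the mm10 coordinates). No 2 libraries of a region agreed within sampling noise (chi-square per degree of freedom of at least 16.4).

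The members and gene lists were chosen with earlier results of these data known. Named were all 10 members, Drd1, Rpl10a, called genes and the 3 most abundant of each pathway list, and the 3 nearest profiles of each called member; the other genes named, Slit1, Robo4, Neo1 and Srgap2 among them, were added after their values were seen. Alternatives were RLE and upper-quartile scaling, no filter, a filter of 1 CPM in 4 libraries, DESeq2 1.42.0, limma-voom (limma 3.58.1), the replicate block, a glial marker covariate, thinned libraries and libraries left out. The fit was tested on simulated counts.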

Additional observations from a re-analysis of the deposited data

Results flagged for a closer look

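Of 20 sets of 4 libraries (10 genes in 2 regions), 1 held a library far from the others. In accumbens 2, Robo2 stood at 106 CPM beside 63.2 to 68.1 CPM in the other 3 accumbens libraries, a gap of 0.856 of the group's range in log2 CPM, above the critical value of Dixon's test for 4 values. Chance flags about 1 in 20 such sets. Without accumbens 2 the log2 fold change of Robo2 was -1.38, with all libraries -1.17. Accumbens 2 also had the highest level of Ntn1, Slit2, Slit3 and Unc5c and the lowest of Unc5b among accumbens libraries.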

How the results depend on the processing

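No gene of the 10 changed direction under any of 18 settings, and Dcc, Unc5a, Unc5b, Unc5c and Slit3 were called in none of them. The 5 members called (4 higher in accumbens, 1 in dorsal striatum) came to 5 with RLE or upper-quartile scaling, no filter, the stricter filter, thinned libraries, DESeq2 and limma-voom. With the glial marker covariate the count was 2 (1 higher in accumbens), without accumbens 2 and dorsal striatum 3 together 3 (2 higher in accumbens), and with each library left out in turn 3 to 5 (2 to 4 higher in accumbens). Over all genes, 464 were called (200 and 264), 763 by DESeq2 (375 higher in accumbens), 350 higher in accumbens without a filter, and 159 with the glial marker covariate (62 and 97). Of further pathway genes 3 were called (2 higher in accumbens), 6 by DESeq2 (5 higher in accumbens), 5 without a filter (4 higher in accumbens), 0 with the glial marker covariate (0 in each direction), 1 without accumbens 2 and dorsal striatum 3 together (0 higher in accumbens), and 2 to 3 with each library left out (1 to 2 higher in accumbens). Fits with fewer libraries or more terms have fewer residual degrees of freedom. The glial marker level ranged higher in accumbens than in dorsal libraries, with overlap, so that this covariate is partly tied to region. Why the counts changed was not tested. Between 4 and 7 of 9 ratios had no overlap under the alternatives. The labels do not say whether same-numbered libraries came from the same animals. Deviations of same-numbered libraries from their region means correlated at 0.01, -0.08, -0.04 and -0.04 over 12467 genes. Those of differently numbered libraries ran from -0.13 to 0.11. These values cannot settle the pairing, since noise between libraries could hide shared animals. With the replicate number as a block, 432 genes, 5 of the 10 members and 3 pathway genes were called. Unc5b had the fewest reads of the 10 genes.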
